A study of Xenopus laevis with 6 samples.

Results

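The genes examined here act after a damaged base has been cut out of DNA, when an abasic site or a nick remains to be closed. They were chosen by name, as all features of the count tables whose symbol without the ending .L or .S was apex1, apex2, polb, xrcc1, lig3, parp1, parp2, aptx or fen1. All 9 genes were found, as 14 of 44958 features. Xenopus laevis is allotetraploid, and .L and .S mark the homeologous gene copies on its long and short chromosomes. Both copies were present for apex1, parp2, aptx, fen1 and xrcc1, whereas apex2, parp1 and lig3 were analysed as the L copy and polb as the S copy only. The count tables held no other copy of these 4 genes under these symbols, and a copy under another name was not analysed.

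Polyadenylated RNA was sequenced from pools of whole embryos at stage 23, the early tailbud stage, with 6 embryos a pool by the labels, while the study's methods give only a lower limit on their number. Each embryo had received 40 ng of either a control Morpholino (control MO, 3 libraries) or a Morpholino against neil2 (neil2 MO, 3 libraries) in the animal hemisphere at the 1-cell stage. A Morpholino is a synthetic antisense oligonucleotide, and that against neil2 was designed to block translation of its target. Neil2 is a DNA glycosylase, an enzyme that cuts oxidized bases out of DNA. Nothing in the labels says whether the pools of a group came from separate clutches, so the p-values measure only the spread between these pools. In whole embryos, fewer cells of a type and less RNA per cell cannot be told apart.

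The oligonucleotides that separate the groups are shown here in the direction 5′ to 3′, with capitals for the letters of the neil2 MO that pair with a start codon ATG.
control MO: cctcttacctcagttacaatttata
neil2 MO: gtctgactgtgggaccttccggCAT
Both are 25 bases long, and the capitals cover positions 23 to 25 counted from the 5′ end. Because such an oligonucleotide blocks translation, the neil2 transcript level does not measure the knockdown. The feature neil2.L had 3, 4 and 3 reads in control MO replicates 1 to 3 and 5, 4 and 15 reads in neil2 MO replicates 1 to 3, which is too few for an adjusted p-value.

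As background, base excision repair begins with a glycosylase that removes the base. In mammals Apex1 then nicks the abasic site, or the glycosylase itself cuts the strand and leaves ends that other enzymes must clean. Parp1 and Parp2 bind the break and build poly(ADP-ribose), Xrcc1 gathers the repair enzymes, Polb fills the gap, Fen1 trims displaced flaps and Lig3 seals the nick. The study asked how embryos respond to loss of Neil2, and here it was asked whether transcripts of the steps downstream of the glycosylase changed with it.

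Libraries held between 11534725 and 24034094 counted reads. Levels are given in CPM, the reads of a feature after scaling each library to a total of 1000000 counted reads, and 3 reads corresponded to 0.125 to 0.260 CPM. This floor and the Wilson intervals of read shares cover counting error only, whereas the intervals of log2 fold changes and of L to S ratios include the spread between libraries. Because lengths of the counted transcripts were not used, levels are compared between libraries and not between genes. Libraries with the same replicate number deviated from their group means together, most closely those numbered 3, and values that rest on single libraries are given below. Of the tissue markers, neural genes summed to between 632 and 672 CPM in control MO and to between 514 and 579 CPM in neil2 MO libraries, and muscle genes to between 2057 and 2326 and to between 1909 and 2018 CPM. None of the 7 neural and 6 muscle marker features passed the test below, and the 7 neural ones all had negative log2 fold changes. Of the muscle features 4 had positive and 2 had negative log2 fold changes, with a median of 0.082. The 2 negative ones, actc1.L and actc1.S, made up most of the muscle sum (means of 1085 and 845 CPM in control MO). Neural crest, epidermal and endodermal marker sums overlapped between the groups. The part of tissue composition in the results below was not tested.

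None of the repair genes changed detectably after injection of neil2 MO. With DESeq2, 0 of the 13 features that received an adjusted p-value were raised and 0 were lowered, where a call needs a log2 fold change beyond 0.5 in either direction with an adjusted p-value under 0.1. Over all 23457 features tested, 1.17% were raised and 1.12% were lowered, so a count of 0 among 13 is near that background. The lowest adjusted p-value was 0.654 (aptx.L), and 0 members had an unadjusted p-value below 0.05, compared with 9.84% of all features tested. The quasi-likelihood test of edgeR also called 0 members, beside 71 features raised and 70 lowered in all. In that test 0 members had an unadjusted p-value below 0.05. When the replicate number was included as a block, DESeq2 called 3.14% of 22050 features raised and 2.74% lowered and again 0 of the 13 members, of which 1 (aptx.L) had an unadjusted p-value below 0.05, compared with 16.9% of all features tested. With edgeR and the block, 2 members (aptx.L and xrcc1.S) had an unadjusted p-value below 0.05, and 0 were called. Over all features that fit called 980 raised and 1255 lowered. The share of all features with an unadjusted p-value below 0.05 was not computed for edgeR, so its member counts have no such background beside them.

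The libraries bounded the size of change in whole-embryo RNA that could have been missed. A change confined to part of the embryo is averaged over the pool, so its size there was not bounded. For 12 of the 13 features the 95% interval of the log2 fold change lay within a 2-fold change in either direction, the exception being parp2.L with an interval from -0.88 to 1.55. For 7 features it lay between -0.5 and 0.5 on the log2 scale. In 11 of 13 the estimate was smaller than its standard error, whose median was 0.19, and the exceptions were aptx.L and xrcc1.S. The log2 fold changes were positive in 9 and negative in 4 features, with a median of 0.043 beside 0.012 over all features tested. CPM ratios lay 0.054 lower on the log2 scale than DESeq2 values (median over all features tested), so the sign of the smallest changes depends on the scaling.

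**Figure D1:**
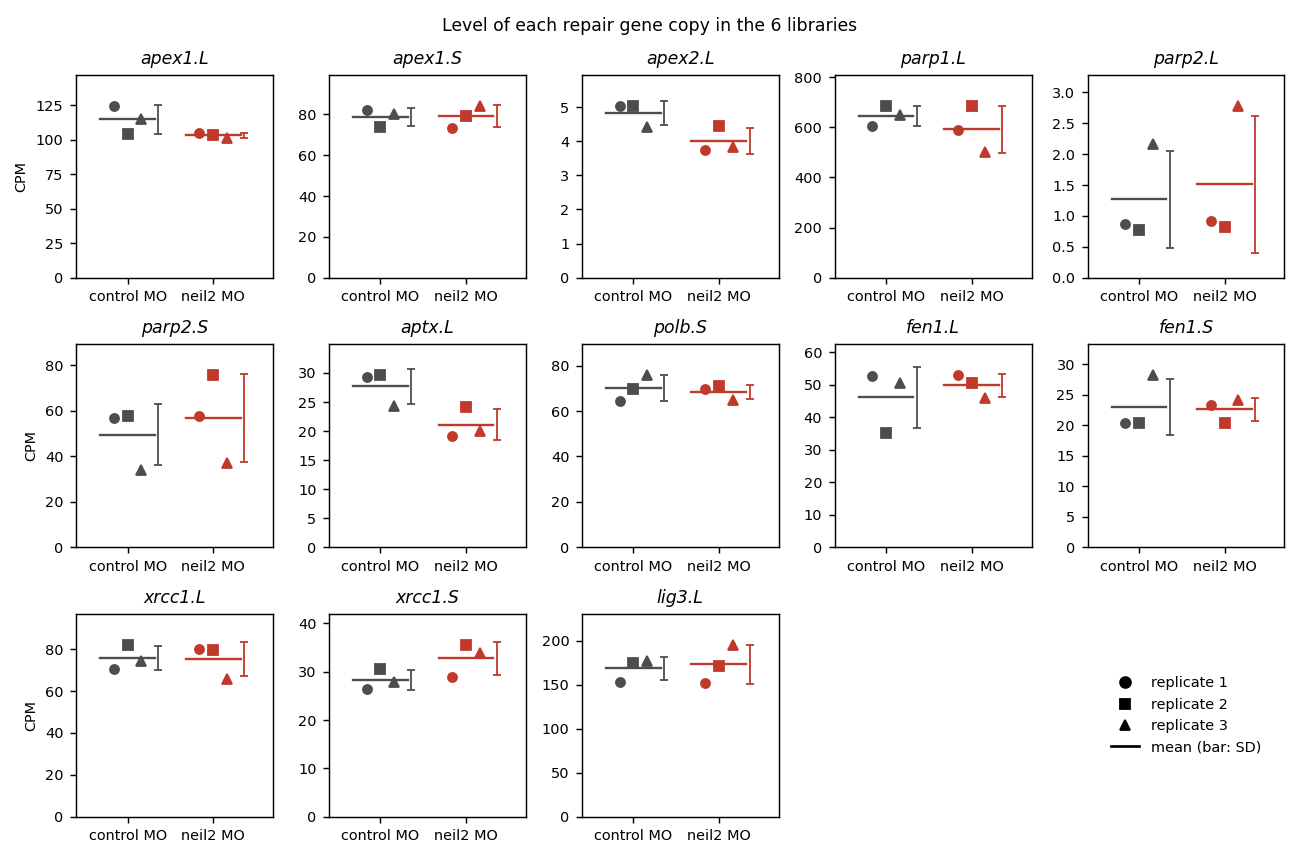
CPM (vertical axes, each from 0) of 13 repair gene copies in 3 control MO (grey) and 3 neil2 MO (red) libraries, with symbols for replicate numbers, a horizontal line for the mean and a bar for the SD. The groups overlap in every panel except that of aptx.L, and the triangles of replicate 3 lie lowest for parp2.S and highest for parp2.L in both groups.

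The AP endonucleases were examined first, since the study also asked whether loss of Apex1 resembles loss of Neil2. Apex1 is the main enzyme that incises abasic sites. The copy apex1.L was counted at 125, 104 and 115 CPM in control MO replicates 1 to 3 and at 105, 103 and 101 CPM in neil2 MO replicates 1 to 3. The neil2 MO values lay close together, and the groups overlapped only through control MO replicate 2. Means were 115 ± 10.2 and 103 ± 1.76 CPM (SD, n = 3), a log2 fold change of -0.098 with a 95% interval from -0.40 to 0.20. The copy apex1.S was counted at 82.4, 74.0 and 80.5 CPM in control MO and at 73.6, 79.4 and 84.4 CPM in neil2 MO libraries. Here the group means were nearly the same, at 78.9 ± 4.40 and 79.1 ± 5.40 CPM (SD, n = 3). With reads of both copies summed, apex1 had 193.6 ± 14.5 CPM in control MO and 182 ± 3.66 CPM in neil2 MO embryos (SD, n = 3), and its log2 fold change of -0.035 had an adjusted p-value of 0.995 (DESeq2).

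Apex2 is a related nuclease with weak endonuclease activity that acts on 3′ ends of breaks. The feature apex2.L was low, at 5.04, 5.05 and 4.42 CPM in control MO and 3.75, 4.46 and 3.83 CPM in neil2 MO libraries, or 51 to 104 reads. It was lower in neil2 MO in each same-numbered pair, although neil2 MO replicate 2 reached the level of control MO replicate 3. The log2 fold change was -0.22 with an interval from -0.79 to 0.36 and an adjusted p-value of 0.952 (DESeq2). That interval includes a fall beyond 0.5 on the log2 scale.

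The break sensors came next. Parp1 detects DNA strand breaks and makes most of the poly(ADP-ribose) of a cell. parp1.L was counted at 606, 686 and 649 CPM in control MO and at 588, 687 and 499.7 CPM in neil2 MO libraries. One library, neil2 MO replicate 3, was below all others, and the remaining 5 lay between 588 and 687 CPM. The difference between the same-numbered libraries was -0.043, 0.0033 and -0.38 on the log2 scale for replicates 1 to 3. The log2 fold change over all libraries was -0.071 ± 0.18 (SE), and without neil2 MO replicate 3 it was 0.048.

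Parp2 is the second break-activated member of this family. Nearly all its reads came from the S copy, with 56.7, 57.8 and 33.9 CPM for parp2.S in control MO and 57.7, 75.7 and 36.8 CPM in neil2 MO libraries. In both groups replicate 3 was the lowest. parp2.L was counted with 18, 12 and 25 reads in control MO and 17, 15 and 67 reads in neil2 MO libraries, or 0.871, 0.766 and 2.17 CPM against 0.924, 0.825 and 2.79 CPM. In both groups replicate 3 was the highest for this copy, opposite to parp2.S. Neither copy passed the test, at log2 fold changes of 0.26 ± 0.28 for parp2.S and 0.34 ± 0.62 for parp2.L (SE), although both were higher in neil2 MO within each same-numbered pair. For parp2.S the largest of these differences was 0.39, in replicate 2, and the log2 fold change without neil2 MO replicate 2 was -0.038. For parp2.L it was 0.94 without control MO replicate 3 and 0.085 without control MO replicate 2, and without neil2 MO replicate 3 this copy received no adjusted p-value.

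The cleaning of broken ends was represented by Aptx. Aptx, or aprataxin, removes AMP left on DNA ends by failed ligation. aptx.L was the only member whose groups did not overlap, with 29.2, 29.6 and 24.3 CPM in control MO and 19.1, 24.2 and 20.1 CPM in neil2 MO libraries. The gap between the groups was narrow, from 24.2 to 24.3 CPM. Among all features tested, 10.3% had all neil2 MO values below all control MO values and 6.13% had them all above, so 1 of 13 members below and 0 above is near that background. Means were 27.7 ± 2.99 and 21.1 ± 2.68 CPM (SD, n = 3). The log2 fold change was -0.34 ± 0.20 (SE), with a 95% interval from -0.74 to 0.060 and an adjusted p-value of 0.654 in DESeq2 and 0.532 in edgeR. With the replicate block the DESeq2 estimate was the same (-0.34), and its 95% interval from -0.66 to -0.022 excluded 0. The adjusted p-value with the block was 0.245 in DESeq2 and 0.0902 in edgeR. The last value is under 0.1, but the change stayed short of the effect size filter and was not called. When single libraries were left out, the log2 fold change of aptx.L ranged from -0.47 to -0.26. In the RefSeq annotation of assembly v10.1 the gene aptx.L overlaps dnaja1.L, a chaperone gene with a log2 fold change of 0.25 ± 0.19 (SE). Reads that fall on 2 genes are not counted at the settings used, and whether these genes also overlap in the annotation used for counting was not tested. Of the 14 features 13 were found by symbol in RefSeq, and the other 12 had no overlapping gene. The copy aptx.S had 0 reads in 5 libraries and 1 read in neil2 MO replicate 3, so both groups were under the floor of 3 reads.

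**Figure D2:**
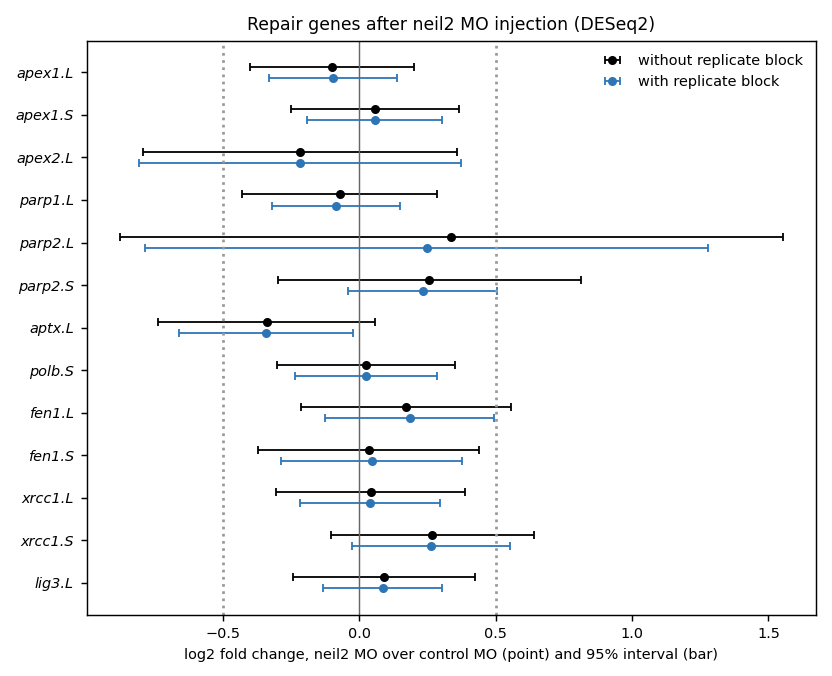
DESeq2 log2 fold change of neil2 MO over control MO (horizontal axis) with its 95% interval for 13 repair gene copies, without (black) and with (blue) the replicate number as a block. All 13 intervals without the block include 0, and with the block only that of aptx.L excludes it (-0.66 to -0.022). Dotted lines mark the effect size filter of 0.5 in either direction, and parp2.L has the widest interval.

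Gap filling and flap removal followed. DNA polymerase beta, encoded by polb, inserts the missing nucleotide and removes the sugar remnant. polb.S was counted at 64.3, 69.9 and 75.9 CPM in control MO and at 69.8, 70.8 and 65.0 CPM in neil2 MO libraries, so that the neil2 MO values lay inside the range of the controls. Its log2 fold change was 0.025 with an interval from -0.30 to 0.35, and its mean CPM was slightly lower in neil2 MO embryos (68.5 against 70.0).

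Fen1 cuts displaced 5′ flaps in long-patch repair and in DNA replication. For fen1.L, control MO replicate 2 stood below the other libraries, at 35.2 CPM beside 52.6 and 50.5 CPM in control MO replicates 1 and 3 and 53.0, 50.5 and 46.1 CPM in neil2 MO replicates 1 to 3. For fen1.S, control MO replicate 3 was the highest library, at 28.3 CPM beside 20.4 and 20.3 CPM in replicates 1 and 2 and 23.4, 20.4 and 24.1 CPM in neil2 MO libraries. The log2 fold changes were 0.17 ± 0.20 for fen1.L and 0.035 ± 0.21 for fen1.S (SE). The pairs of fen1.L differed by 0.0099, 0.52 and -0.13 on the log2 scale, the middle value being the pair of that low control library, and without control MO replicate 2 the log2 fold change of fen1.L was 0.022.

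The scaffold and the ligase completed the group. Xrcc1 has no catalytic activity of its own and holds Polb, Lig3 and Aptx at the break. xrcc1.L was counted at 70.7, 82.2 and 74.6 CPM in control MO and at 79.9, 79.8 and 66.0 CPM in neil2 MO libraries, and the groups overlapped widely. xrcc1.S was counted at 26.3, 30.6 and 27.9 CPM in control MO and at 29.0, 35.6 and 33.8 CPM in neil2 MO libraries. This copy was higher in neil2 MO in each same-numbered pair, by 0.14, 0.22 and 0.28 on the log2 scale, although control MO replicate 2 exceeded neil2 MO replicate 1. Its log2 fold change of 0.27 ± 0.19 (SE) had an adjusted p-value of 0.762 without and 0.362 with the replicate block (DESeq2).

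Lig3 seals nicks in the nucleus and is the ligase of mitochondria. lig3.L was counted at 153, 175 and 177.0 CPM in control MO and at 152, 172 and 196 CPM in neil2 MO libraries. In each group replicate 1 was lowest and replicate 3 highest, and the log2 fold change of 0.091 ± 0.17 (SE) was smaller than its standard error.

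Because of the shared deviations of same-numbered libraries, each member was also compared within pairs. The neil2 MO library had the lower CPM in all 3 pairs for 3 of 13 members (apex1.L, apex2.L and aptx.L) and the higher CPM in all 3 for 3 (parp2.L, parp2.S and xrcc1.S). Over all features tested these shares were 26.5% and 18.3%, so the members did not stand out. A likelihood ratio test of the replicate number in DESeq2, with group in the model, gave an adjusted p-value below 0.1 for 17.1% of 23465 features and for 2 of the 13 members, which were the copies of parp2. parp2.S had an adjusted p-value of 6.59e-06, and parp2.L had 0.0937. Replicate 3 was below the mean of replicates 1 and 2 by 0.76 (control MO) and 0.86 (neil2 MO) on the log2 scale for parp2.S, and above it by 1.40 and 1.67 for parp2.L. The other 11 members had adjusted p-values between 0.224 and 0.934 in this test. With 2 of 13, the members were near the share over all features. The test looks for a replicate difference common to both groups, so its presence in both groups for parp2 is no separate result. For parp2.L it rests on 12 to 67 reads per library.

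Homeologs were then compared, to ask whether the copies of a gene shifted against each other. The share of reads on the L copy depends on how many positions tell the copies apart and on their lengths, so it describes the counts and not the promoters. In control MO embryos the L copy held 59.2 ± 0.91% of apex1 reads, 72.8 ± 0.063% of xrcc1 reads and 66.5 ± 4.82% of fen1 reads (SD, n = 3). Across 7285 pairs the median was 55.6%, with quartiles of 40.2 and 71.1%, and 56.4%, 77.1% and 68.9% of pairs had a lower share than apex1, xrcc1 and fen1. For parp2 the share was 2.94 ± 2.66%, and 0.398% of these pairs had a lower one. Pairs with fewer reads on either copy, such as aptx, were left out, so this percentage does not cover them. The L share of parp2 was 1.51% (Wilson 95% interval 0.959 to 2.38%), 1.31% (0.750 to 2.27%) and 6.01% (4.10 to 8.72%) in control MO replicates 1 to 3. In neil2 MO replicates 1 to 3 the parp2 share was 1.58% (0.986 to 2.51%), 1.08% (0.655 to 1.77%) and 7.04% (5.58 to 8.84%). In both groups the interval of replicate 3 lay above those of the other libraries.

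No group difference in the log2 ratio of L to S was detected for the 4 member pairs with enough reads in both copies. With limma, 0 of 4 pairs passed an adjusted p-value of 0.1, beside 0.426% of all pairs. Of the 4 pairs 0 had an unadjusted p-value below 0.05 in this test. The difference, neil2 MO minus control MO, was -0.15 for apex1 (95% interval -0.46 to 0.16), -0.22 for xrcc1 (-0.62 to 0.18), 0.14 for fen1 (-0.35 to 0.63) and 0.0024 for parp2 (-2.17 to 2.17). In xrcc1 the L share was 72.8 to 72.9% in the 3 control MO libraries and 73.4, 69.2 and 66.1% in neil2 MO replicates 1 to 3. The control values lay closer together than counting error, with a Wilson 95% interval from 70.15 to 75.22% in control MO replicate 3. Their closeness is therefore no measure of how steady this share is. Of the 3 neil2 MO values 2 were lower, but neil2 MO replicate 1 was above the controls, so the groups overlapped.

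**Figure D3:**
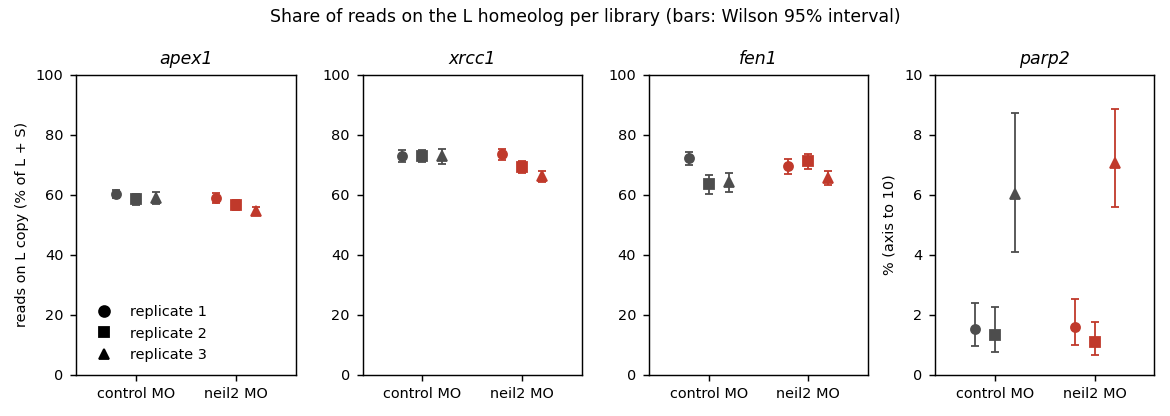
Share of reads on the L copy (percent of L plus S reads, vertical axes) of apex1, xrcc1, fen1 and parp2 in each library, with Wilson 95% intervals for counting error, control MO in grey and neil2 MO in red. The axis of parp2 ends at 10%, where replicate 3 reaches 6.01 and 7.04% and the other 4 libraries lie between 1.08 and 1.58%.

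The steps before and around the members were examined as well. Of 12 DNA glycosylase features 10 were tested, and 0 were raised or lowered by DESeq2, with a median log2 fold change of -0.091. neil1.L (-0.091) and neil3.L (0.53 ± 0.29 SE, adjusted p-value 0.592) are relatives of the targeted gene. mbd4.L, which encodes a glycosylase for mismatched thymine and uracil, had 8.71, 7.86 and 7.37 CPM in control MO and 5.38, 4.84 and 4.16 CPM in neil2 MO libraries, with all neil2 MO values below those of the controls. Its log2 fold change of -0.69 ± 0.26 (SE) had a DESeq2 adjusted p-value of 0.220, and with the replicate block mbd4.L was called lowered (adjusted p-value 0.0960). It was the only glycosylase feature that this fit called, whereas edgeR called 0 without the block and, with it, both mbd4.L as lowered and neil3.L as raised (adjusted p-values 0.0204 and 0.0610).

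Among 12 tested features of other single-strand break factors, including parg, tdp1 and aplf, 0 were called by DESeq2 with or without the block, with a median log2 fold change of 0.022. The highest estimate was that of parp3.L (1.43 ± 0.96 SE, adjusted p-value 0.739), a further poly(ADP-ribose) polymerase gene with 21.0, 8.81 and 2.43 CPM in control MO and 52.6, 12.9 and 18.2 CPM in neil2 MO libraries. Its libraries spread widely within each group, and control MO replicate 1 exceeded 2 of the 3 neil2 MO libraries. With the replicate block the adjusted p-value of parp3.L was 0.107 in DESeq2 and 0.00181 in edgeR, which called it raised. The lowest was exog.L, for a mitochondrial nuclease (-0.23).

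Of 22 tested long-patch and replication-linked features 1 was raised and 0 were lowered, with a median of 0.13. The raised one was rfc3.L, a subunit of the clamp loader that places PCNA on DNA, with 6.20, 7.09 and 3.55 CPM in control MO and 12.6, 13.1 and 13.4 CPM in neil2 MO libraries. Its log2 fold change was 1.25 ± 0.28 (SE), with a DESeq2 adjusted p-value of 0.00107, whereas edgeR gave 0.111 without and 0.000675 with the replicate block. rfc5.S, another clamp loader subunit, had the lowest value of this list (-0.41, adjusted p-value 0.657).

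Of 21 tested proliferation features 0 were raised and 1 was lowered, with a median of 0.11. The lowered feature was mcm4.S, a copy of a replicative helicase subunit gene, which fell from 62.9 ± 4.45 to 22.3 ± 4.80 CPM (SD, n = 3). Its other copy, mcm4.L, had means of 100 and 88.9 CPM and was not called (log2 fold change -0.11, DESeq2 adjusted p-value 0.969). The highest feature was ccnb2.S (0.29). With the replicate block DESeq2 called 2 lowered, the other being rrm1.L, named here after its values were seen. It is a copy of a ribonucleotide reductase subunit gene. Without the block its log2 fold change was -0.82 (DESeq2 adjusted p-value 0.101), with means of 30.5 CPM in control MO and 16.5 CPM in neil2 MO. The other copy, rrm1.S, had means of 143.5 and 148.5 CPM and was not called (log2 fold change 0.11, DESeq2 adjusted p-value 0.968). By contrast, 9 of 10 tested features of the damage response genes that the study names (mdm2, ccng1, eda2r, aen, riok3 and cdkn1a) were raised. Their log2 fold changes ran from 0.72 for cdkn1a.L to 2.80 for eda2r.L, with only cdkn1a.S (0.13) not called. edgeR called 3 of the 10 raised without and 9 with the replicate block. The study picked that list from these libraries, so its count is not independent evidence of its direction. No test was made of the difference between that list and the repair genes.

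**Figure D4:**
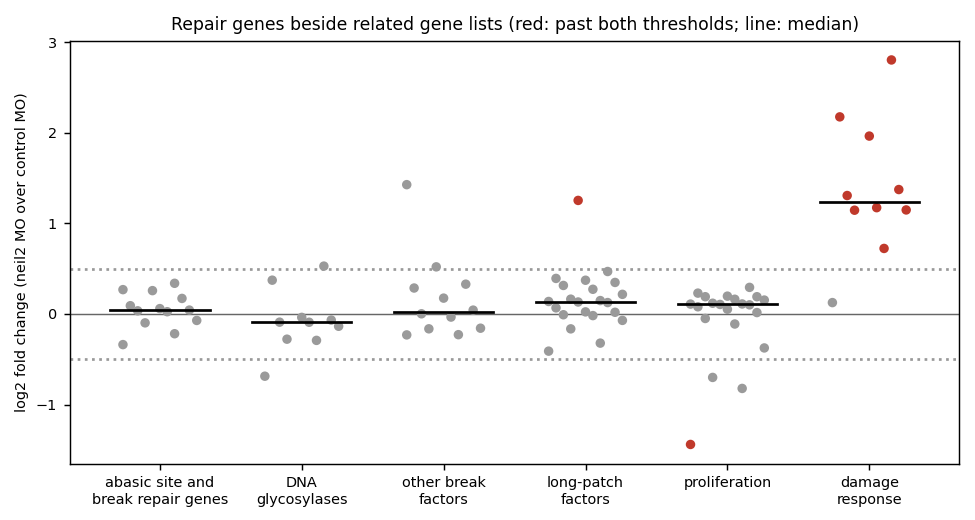
Log2 fold change of neil2 MO over control MO (vertical axis) for each tested feature of the repair genes and of 5 related lists, with a line at the median, dotted lines at the effect size filter of 0.5 and red points for features past both thresholds. The 13 repair features lie between -0.34 and 0.34 with no red point, beside 9 red points among 10 damage response features.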

How the data were processed

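Short single reads, whose number of cycles differs by 1 between the labels and the study's methods, were mapped by the authors with STAR 2.5.4b, allowing at most 2 mismatches, against assembly v9.2 of X. laevis, and featureCounts 1.5.1 with default settings (no strand) assigned them to JGI gene models. The deposited values are raw counts per feature. At these settings reads that map to several places, as in stretches identical between homeologs, are not counted. Groups and replicate numbers came from the titles. DESeq2 1.42.0 (Wald test, independent filtering, all features) in R 4.3.3 was the main test, as in the study, and edgeR 4.0.16 (TMM) the alternative. L to S ratios were tested with limma 3.58.1 on normalized counts (pseudocount 0.5, mean count of at least 10 per copy). Members, lists and tests were chosen with earlier results of these data known, and the test of the replicate number was added after seeing the data. All member features are named, and 1 further gene of this pathway is not reported here. Of each other list, called features, the highest and the lowest (mean normalized count of at least 50) and neil genes are named, with list members in passing.

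Same-numbered libraries were taken as pairs because their deviations from group means correlated with r = 0.585, 0.566 and 0.632 over 23779 features. No libraries of a group matched within sampling noise (chi-square per degree of freedom at least 13.8). Of the markers, 3 muscle, 3 endoderm and 1 epidermis symbols were found. No coordinates are given, because the RefSeq table is of assembly v10.1.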

Additional observations from a re-analysis of the deposited data

How the results depend on the processing

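The count of 0 raised and 0 lowered members held under every alternative run. The other tests were the replicate block in DESeq2 and edgeR and edgeR without it. In DESeq2 without the block, the mean count was set to at least 10, scaling was by TMM, or independent filtering was dropped. The adjusted p-value was also set below 0.05, the effect size filter was dropped, or homeologs were summed. Each library was left out as well and, chosen after seeing the data, both libraries numbered 3. The effect size filter was not dropped in the other tests. With edgeR and the block the adjusted p-value of aptx.L was 0.0902, so there only this filter kept it from a call. The counts over all features (275 raised, 262 lowered) became 71 and 70 in edgeR, 693 and 604 in DESeq2 with the replicate block and 980 and 1255 in edgeR with it, and ranged from 142 to 311 and from 118 to 274 with libraries left out (152 and 118 without control MO replicate 1, 142 and 153 without neil2 MO replicate 1). Without replicate 3 they were 175 and 191. The cause was not tested. Changed L to S pairs (31) became 56 at a mean count of at least 50, 205 with the replicate block and 0 to 2 with 1 library left out, with 0 member pairs each time.

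With libraries left out, signs changed for fen1.S (-0.060 to 0.20), parp1.L (-0.22 to 0.048), parp2.S (-0.038 to 0.50), polb.S (-0.048 to 0.13), xrcc1.L (-0.027 to 0.14) and the parp2 ratio (-0.83 to 0.71), which was -0.0023 at a pseudocount of 1 and -0.035 from CPM. Without replicate 3, parp1.L was 0.045. These changes of sign lay in values that did not pass the test. Leaving out 1 library moved parp2.L between 0.085 and 0.94 and fen1.L between 0.022 and 0.26. Without neil2 MO replicate 3, alone or with control MO replicate 3, parp2.L received no adjusted p-value, so 12 members were tested. With 1 read in neil2 MO replicate 3 and 0 reads in each other library, aptx.S received no adjusted p-value.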
